A study of Danio rerio with 6 samples.

Results

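The circadian clock genes of the larval zebrafish gut were described as 46 gene symbols of a count table of 15419. They were taken by name: the period (per), cryptochrome (cry), clock, npas2, arntl, Rev-erb (nr1d), ROR (ror), dbp, tef, hlf, nfil3, bhlhe40 and bhlhe41, ciart and casein kinase 1 delta and epsilon genes. A further 59 symbols that begin like the cryptochromes name crystallins and were left out. Of the 46 genes, 39 passed the filter on low counts and were tested among 11466 genes.

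RNA came from dissected guts of wild-type (WT) Danio rerio larvae, sequenced as 6 bulk libraries that each pooled 10 to 15 guts. The 3 libraries labelled cut_wt, called transected here, came from larvae whose gut had been transected 24 h earlier. The 3 libraries labelled wt carry no mention of transection and are called control. Both groups are WT, the labels give an age of 5 days post-fertilization, and both groups carry replicate numbers 1, 2 and 3. The labels give neither a time of day nor a light regime. The titles of the replicate 2 libraries of both groups share a further number, 10, and those of the replicate 3 libraries share 11. The replicate 1 titles share none, with 3 in control and a blank in transected, and the labels do not say what these numbers mean.

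The vertebrate clock is a loop of transcription factors. CLOCK and BMAL1, the product of the arntl1 genes, pair up and switch on per and cry genes, whose proteins then shut the pair off. In a joined loop the same pair switches on the Rev-erb receptors, which repress arntl genes, while ROR receptors activate them at the same elements. The factors DBP, TEF and HLF activate and NFIL3 represses a further set of target genes through D-box elements. Zebrafish organs hold clocks that respond to light directly, and in zebrafish cells light induces per2 and cry1a, which ties the loop to the day. Since each phase of the loop has its own genes at their peak, the level of a gene that cycles in a tissue depends on the hour of sampling.

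Total counts were 21525093 to 25131242 per library, and 1 count was worth 0.0384 to 0.0465 CPM (counts scaled for sequencing depth on TMM-adjusted library sizes). CPM is not scaled by gene length, so values are compared between libraries and not between genes. Defining gut genes such as vil1, the villin of microvilli, and cdx1b, an intestinal transcription factor, were present in every library, at 52254 to 66132 and 2272 to 3430 counts. Other genes of the gut list were near the floor, with 3 to 11 counts for fabp2, 9 to 25 for hnf4a and 5 to 60 for sox17. In bulk RNA, fewer cells of a type and less RNA per cell cannot be told apart. Many clock genes exist as duplicates (per1a and per1b, csnk1da and csnk1db), and how reads shared between copies were counted is not given in the sources used here.

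Both replicate 1 libraries, transected and control, lay below the other 4 libraries in 18 of 39 clock genes (46.2%, against 18.3% of all genes). They lay above the other 4 in 6 clock genes (15.4%, against 19.1% of all genes). nr1d1, the Rev-erb alpha receptor, was 6.17 times lower in replicate 1 than in replicates 2 and 3 in transected and 5.88 times lower in control guts, and per1a was 10.7 times lower in transected and 4.64 times lower in control guts. By value, the 6 genes that ran the other way were the activator genes clocka, clockb and arntl1a, and also bhlhe40, cry3a and hlfb. The activator arntl1b was not among them. Set against control guts, transected guts gave 0 of 39 clock genes at an adjusted p under 0.05 in edgeR, where 2 of 11466 genes passed. By value, 10 clock genes (25.6%), per2, cry3b and rorcb among them, were lower in every transected library than in any control. Of all genes 6.38% were.

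**Figure D1:**
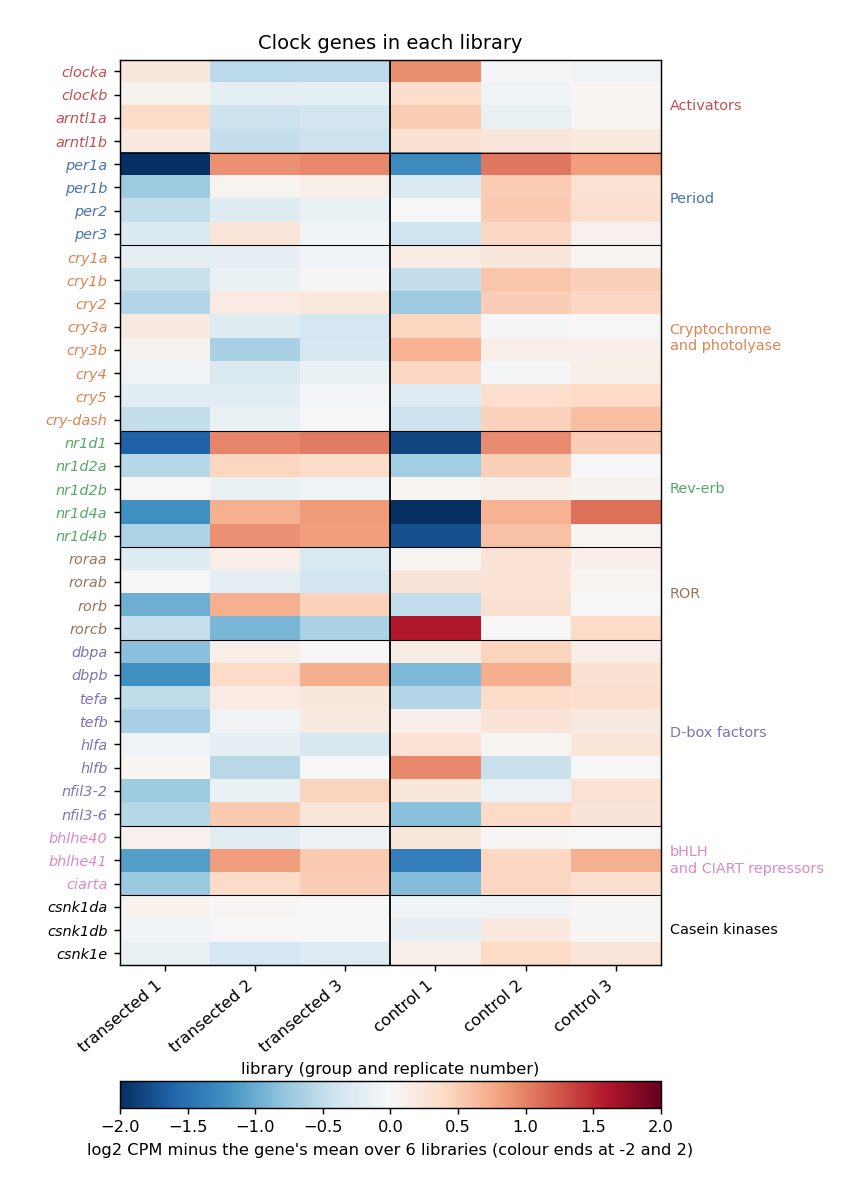
Level of the 39 tested clock genes (rows, grouped and coloured by role) in the 6 libraries (columns, transected left of control), as log2 CPM minus the gene's mean over the 6 libraries, with red high and blue low. The columns of replicate 1 in both groups are blue for per1a, nr1d1, nr1d4a, nr1d4b, bhlhe41 and ciarta, and clocka and arntl1a are highest there within each group.

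The replicate number was set in the fit beside the group, and its 2 terms were tested together. In edgeR's quasi-likelihood test, 1 of 39 clock genes passed, against 0.0959% of all genes tested (11 of 11466). At an unadjusted p under 0.05 there were 22 clock genes, or 56.4%, against 18.7% of all genes. DESeq2's likelihood ratio test called 13 clock genes, or 33.3%, against 6.58% of all genes to which it gave an adjusted p. Both replicate 1 libraries lay below the other 4 libraries in 18 clock genes, or 46.2%, where 18.3% of all genes did so. Both lay above the other 4 in 6 clock genes, or 15.4%, where the share of all genes was 19.1%. For replicate 2 the same count gave 1 clock gene below (7.55% of all genes) and 4 above (5.29% of all genes), and for replicate 3 it gave 0 below (4.37%) and 2 above (3.64%).

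nr1d1 was the clock gene that passed in edgeR. Replicates 1, 2 and 3 held 52.0, 315 and 326 CPM in transected guts, against 44.7, 306 and 225 CPM in control guts. The replicate 1 libraries were therefore the low ones in both groups, and the groups overlapped. The log2 difference of replicate 1 from the mean of replicates 2 and 3 was -2.63 in transected and -2.56 in control guts, with an adjusted p of 0.0416 in edgeR and 1.76e-32 in DESeq2 for the replicate number terms. In edgeR this call was lost without replicate 1 of both groups (0.867), replicate 2 (0.157) or replicate 3 (0.166), where each fit had 4 libraries.

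Another 3 Rev-erb genes were also lowest in replicate 1. nr1d2a, a Rev-erb beta gene, held 107, 215 and 205 CPM in transected and 98.0, 222 and 159 CPM in control replicates 1, 2 and 3. nr1d4a and nr1d4b, Rev-erb relatives of fish, were low throughout. nr1d4b held 1.88, 5.42 and 5.17 CPM in transected and 0.850, 4.33 and 2.99 CPM in control guts, and nr1d4a had 8, 26 and 30 counts in transected and 4, 25 and 34 counts in control guts. The fifth, nr1d2b, the other Rev-erb beta gene, did not follow: it held 182, 165 and 171 CPM in transected and 189, 195 and 191 CPM in control guts.

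Of the period genes, whose proteins close the loop by repressing CLOCK and BMAL1, per1a showed the widest gap. Its counts in replicates 1, 2 and 3 were 127, 1138 and 1227 for transected and 280, 1214 and 1082 for control guts, which is 4.88, 51.4 and 52.9 against 11.3, 56.5 and 49.0 CPM. Its adjusted p for the replicate number terms was 0.139 in edgeR and 1.79e-11 in DESeq2. per1b was lower in replicate 1 by a smaller factor, with 65.5, 111 and 116 CPM in transected and 88.5, 152 and 131 CPM in control guts. per3 held 91.6, 133 and 108 CPM in transected and 85.6, 149.6 and 119.7 CPM in control guts. Both passed in DESeq2 (adjusted p = 0.00175 and 0.0228) and neither in edgeR (0.139 and 0.156).

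Among the activators, 3 of 4 were higher in both replicate 1 libraries than in the other 4, which over all clock genes was no more frequent than over all genes. arntl1a, which encodes BMAL1, held 21.1, 12.1 and 12.6 CPM in transected and 23.2, 14.7 and 16.7 CPM in control replicates 1, 2 and 3. clocka held 8.42, 4.92 and 5.00 CPM in transected and 13.7, 6.98 and 6.84 CPM in control guts, and clockb 26.9, 22.2 and 22.6 against 32.5, 24.1 and 26.1 CPM. For these 3 genes both replicate 1 libraries lay above the other 4, and the groups overlapped. arntl1b had its highest value in replicate 1 in each group, but transected replicate 1 (10.1 CPM) lay within the range of controls (10.1 to 10.9 CPM). The adjusted p for the replicate number terms was 0.143 for clocka in edgeR and 0.0370 in DESeq2, while arntl1a (0.150 and 0.0602), clockb (0.258 and 0.739) and arntl1b (0.463 and 0.949) passed in neither.

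**Figure D2:**
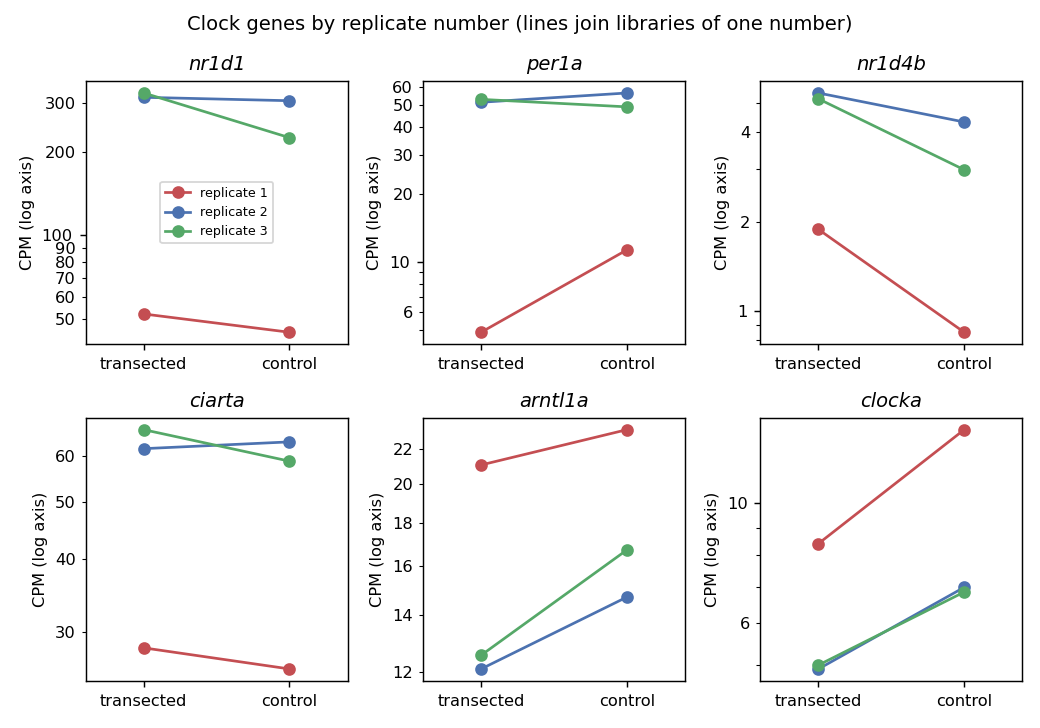
CPM on a log axis for 6 clock genes in transected (left) and control (right) guts, with lines joining the libraries of one replicate number. Replicate 1 lies below the other 4 libraries for nr1d1, per1a, nr1d4b and ciarta and above them for arntl1a and clocka, in both groups.

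Further repressors and D-box genes were low in replicate 1 beside nr1d1. bhlhe41, a basic helix-loop-helix repressor of the same E-box elements, held 3.11, 11.9 and 9.57 CPM in transected and 2.55, 8.93 and 10.9 CPM in control guts. ciarta, the gene of CHRONO, a repressor of CLOCK and BMAL1 known from mice, held 28.2, 61.6 and 66.4 CPM in transected and 26.0, 63.3 and 58.7 CPM in control guts. bhlhe40, the relative of bhlhe41, was higher in replicate 1 instead, at 255, 204 and 224 against 279.9, 244 and 239 CPM. For the replicate number terms, which test any difference among the numbers, bhlhe41 and ciarta passed in DESeq2 (adjusted p = 2.29e-06 and 7.08e-09) but not in edgeR (0.120 and 0.0746).

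Among the D-box factors, tefa, dbpb and nfil3-6 were lowest in replicate 1. tefa, an activator, held 74.9, 119 and 124 CPM in transected and 70.8, 138 and 135 CPM in control guts. dbpb, another activator, had 67, 174 and 231 counts in transected and 80, 216 and 165 counts in control guts. nfil3-6, a member of the NFIL3 repressor family, held 41.5, 88.0 and 72.7 against 34.4, 80.7 and 73.4 CPM. All 3 passed in DESeq2 (adjusted p from 5.54e-07 to 0.000715) and none in edgeR (0.0978 to 0.141). hlfb was above the other libraries in replicate 1, at 7.30, 4.83 and 7.16 CPM in transected and 13.9, 5.21 and 7.11 CPM in control guts, by a narrow margin in transected guts.

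The cryptochromes were divided. cry2, cry1b, cry5 and cry-dash were lowest in both replicate 1 libraries, cry3a was highest there, and cry1a showed no order by replicate number. cry3b and cry4 were highest in replicate 1 within each group, with transected replicate 1 below every control. cry2 held 33.0, 55.4 and 57.2 CPM in transected and 30.0, 69.7 and 66.0 CPM in control guts, with an adjusted p of 0.139 in edgeR and 0.000367 in DESeq2. cry3a, a repressor of CLOCK and BMAL1 that RefSeq also lists as cry2a, held 181, 135 and 126 CPM in transected and 214, 157 and 158 CPM in control guts. cry1a held 128, 130.1 and 138 against 160.3, 169 and 149 CPM. The casein kinase genes csnk1da and csnk1e, whose products phosphorylate PER proteins, also showed no common order by replicate number, while csnk1db and rorb, a ROR beta gene, were lowest in both replicate 1 libraries by value.

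The gap between replicate 1 and the other libraries could be set side by side in separate libraries of the 2 groups. The log2 difference of replicate 1 from the mean of replicates 2 and 3 had the same sign in transected and control guts for 34 of 39 clock genes (87.2%), against 67.3% of all genes tested. It exceeded 2-fold in both groups and in the same direction for 7 clock genes (17.9%), against 2.86% of all genes. Pearson's r between the groups was 0.869 across the 39 clock genes and 0.450 across all genes, as a description, since genes of one library are not independent replicates. The spread of these differences was also wider in clock genes, with an SD of 0.93 in transected and 0.96 in control guts, against 0.58 and 0.73 for all genes.

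**Figure D3:**
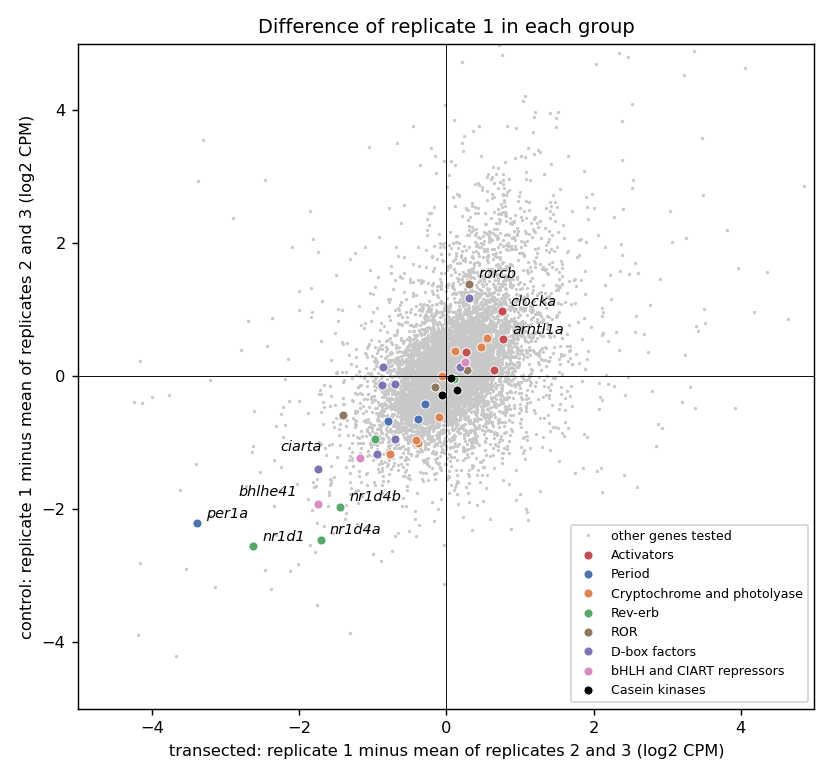
Difference of replicate 1 from the mean of replicates 2 and 3 (log2 CPM, with 0.1 CPM added) in transected guts on the x axis and control guts on the y axis, for clock genes coloured by role and all other tested genes in grey, of which 6 lie beyond the axes. per1a, nr1d1, nr1d4a, nr1d4b and bhlhe41 lie far into the lower left, low in replicate 1 of both groups, and clocka and arntl1a lie to the upper right.

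Markers of other tissues also differed between replicate 1 and the other libraries, in both directions. The summed level of 16 skeletal muscle markers was 6206, 2688 and 4975 CPM in transected and 9234, 782 and 3728 CPM in control replicates 1, 2 and 3, and that of 13 epidermal markers was 3759, 2125 and 2223 against 2491, 1374 and 1689 CPM. Of 12 muscle markers tested 7 were higher in both replicate 1 libraries than in the other 4, and of 11 epidermal markers 8 were, where 19.1% of all genes were. The 15 exocrine pancreas markers ran the other way, at 59310, 85460 and 122200 CPM in transected and 31470, 107000 and 58610 CPM in control guts, with 7 of 15 below the other 4 libraries in both replicate 1 libraries (18.3% of all genes) and 0 above. No member of these 3 lists was at 0 in all libraries. The 14 neuronal markers summed to 204, 237 and 180 CPM in transected and 118, 250.0 and 214 CPM in control guts, with hoxb5b at 0 throughout, and 13 eye markers to 0.69 to 5.50 CPM in transected and 0.86 to 2.18 CPM in control guts, with rcvrna at 0. The 13 hepatocyte markers summed to 8959, 4721 and 5158 CPM in transected and 13850, 6461 and 10760 CPM in control guts. Of 12 tested, 1 was above the other 4 libraries in both replicate 1 libraries and 0 were below (19.1% and 18.3% of all genes). The part of these tissues in the clock gene levels was not tested.

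The design also sets transected against control guts, to ask what differs 24 h after transection. In edgeR, 0 of 39 clock genes passed, against 0.0174% of all genes (2 of 11466), and the smallest adjusted p of a clock gene was 0.422. With the replicate number as a block, 0 passed again, against 0.0349% of all genes, and the smallest adjusted p was 0.179. At an unadjusted p under 0.05, 6 clock genes were lower (15.4%, against 3.55% of all genes) and 0 were higher (4.32% of all genes). With the block 13 were lower at that level (33.3%, against 6.11% of all genes) and 1 was higher, nr1d4b (6.99% of all genes). DESeq2 called 1 clock gene (1.46% of all genes with an adjusted p), and with the block it called 3, all lower (1.08% of all genes were called lower). Leaving out replicate 1 of both groups, edgeR called 2 clock genes lower (1.50% of all genes).

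The direction was mostly downward. Of the 39 clock genes 31 had a negative log2 fold change (79.5%, against 49.5% of all genes), with a median of -0.26 against 0.0026 over all genes. All 3 transected libraries lay below all 3 controls in 10 clock genes, or 25.6%, where 6.38% of all genes did so, and above them in 0, where 7.48% of all genes did so. Set against the control of the same replicate number, the transected library was lower in all 3 numbers in 20 clock genes, or 51.3%, against 17.0% of all genes, and higher in all 3 in 2 clock genes, nr1d1 and nr1d4b, against 20.0% of all genes. Tissue markers differed between the groups as well. Of 11 epidermal markers tested 10 had a positive log2 fold change (median 0.65), as did 13 of 15 exocrine pancreas markers (median 0.40) and 7 of 12 muscle markers (median 0.12). Hepatocyte markers were negative in 12 of 12 (median -0.58) and gut markers in 18 of 24 (median -0.12). The gut markers summed to 30770, 26200 and 26420 CPM in transected and 39600, 29900 and 33680 CPM in control guts. In replicates 1 and 3 much of the gap in this sum lay in apoa1b, which held 9493, 5405 and 5890 against 18120, 6478 and 11900 CPM in replicates 1, 2 and 3. Of the 24 gut markers, 3 lay below the controls in all transected libraries and 1 above. dab2 was among the lower, at 118, 51.6 and 30.5 against 154, 319 and 243 CPM. The higher one was agr2, at 89.5, 98.3 and 107.7 against 50.3, 68.5 and 78.5 CPM. The gut gene vil1 was nearly level, at 2623 ± 480 CPM in transected and 2644 ± 466 CPM in control guts. The part of these tissues in the clock gene differences was not tested.

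**Figure D4:**
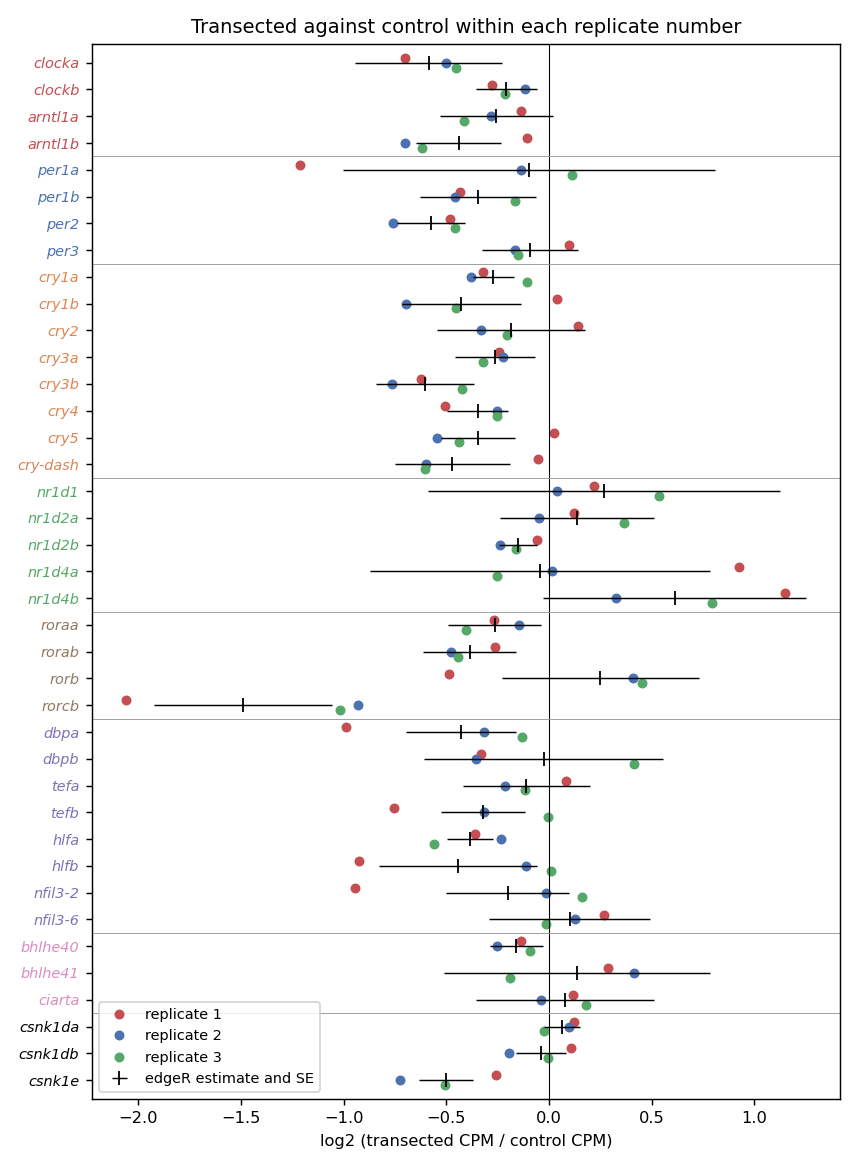
Log2 ratio of transected to control CPM for each tested clock gene, with 1 point for each replicate number and the edgeR estimate with its standard error in black. For per2, cry3b, rorcb and clocka all 3 points lie left of 0, while per1a, nr1d4a and dbpb have points on both sides.

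per2, a light-induced repressor, had 153, 181 and 193 CPM in transected guts for replicates 1, 2 and 3, against 214, 307 and 265 CPM in controls. Every transected library lay below every control, and the ratio of transected to control was 0.717, 0.590 and 0.729 within replicates 1, 2 and 3. The means were 176 ± 20.5 and 262 ± 46.6 CPM (SD, n = 3 each). The log2 fold change of -0.58 (SE 0.17) had an adjusted p of 0.473 in edgeR, 0.191 in edgeR with the replicate block and 0.00966 in DESeq2 with the block. Without replicate 1 of both groups it passed in edgeR (log2 fold change -0.62, adjusted p = 0.0467), and over 20 alternatives it lay between -0.70 and -0.45 and passed in 3. The other period genes did not separate the groups. per1b was lower within each number (ratios 0.740, 0.727 and 0.890), per3 lay at 1.07, 0.892 and 0.901, and per1a at 0.431, 0.909 and 1.08.

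rorcb, a ROR gamma receptor gene, had the widest difference between the groups among the clock genes. Replicates 1, 2 and 3 gave 137, 85 and 108 counts in transected and 543, 157 and 208 counts in control guts, or 5.26, 3.83 and 4.66 against 21.97, 7.30 and 9.42 CPM. All transected libraries lay below all controls, and control replicate 1 stood far above the rest. The log2 fold change was -1.49 (SE 0.43), with an adjusted p of 0.473 in edgeR, 0.217 with the block, 0.0427 in DESeq2 and 0.00281 in DESeq2 with the block. Without replicate 1 of both groups it was -0.99 (0.0738 in edgeR). Hepatocyte markers were also lower within each replicate number: 13 markers summed to 8959, 4721 and 5158 CPM in transected and 13850, 6461 and 10760 CPM in control guts, and no marker was at 0. Their part in the rorcb difference was not tested.

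The remaining ROR genes, activators of arntl transcription, were near 2 CPM or below. rorab held 1.92, 1.67 and 1.47 CPM in transected and 2.31, 2.33 and 1.99 CPM in control guts without overlap (log2 fold change -0.39, SE 0.23, adjusted p = 0.760 in edgeR). roraa held 1.88, 2.44 and 1.81 against 2.27, 2.70 and 2.40 CPM, and rorb 0.576, 1.85 and 1.55 against 0.809, 1.40 and 1.13 CPM. Both overlapped between the groups.

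All 8 cryptochrome and photolyase genes had a negative log2 fold change, from -0.60 to -0.19. cry3b, a cryptochrome that RefSeq also lists as cry2b, held 57.03, 34.9 and 43.5 CPM in transected and 88.0, 59.4 and 58.4 CPM in control guts. The transected libraries lay below the controls, at ratios of 0.648, 0.588 and 0.745 within numbers, and its log2 fold change was -0.60 (SE 0.24; adjusted p = 0.609 in edgeR, 0.179 with the block, 0.0105 in DESeq2 with the block). cry1a, the light-induced cryptochrome, was 132 ± 5.42 CPM in transected and 159.5 ± 9.97 CPM in control guts without overlap (log2 fold change -0.27, SE 0.10, adjusted p = 0.570 in edgeR). cry4 was 16.1 ± 1.17 against 20.5 ± 3.35 CPM, also without overlap (-0.35, SE 0.15, adjusted p = 0.640 in edgeR).

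Another 3 cry genes differed between the groups only in replicates 2 and 3 by value, a contrast that has no replicate within a number and was not tested. cry-dash, of the photolyase family, held 35.2, 44.8 and 48.8 CPM in transected and 36.5, 67.8 and 74.2 CPM in control guts. cry5, the (6-4) photolyase that repairs DNA with light, held 46.0, 46.8 and 52.2 against 45.2, 68.2 and 70.6 CPM. cry1b held 15.5, 19.2 and 21.5 against 15.1, 31.1 and 29.3 CPM. Within replicate 1 their ratios of transected to control were 0.964, 1.02 and 1.03, and within replicates 2 and 3 all 3 lay between 0.618 and 0.738. Without replicate 1 of both groups cry-dash passed in edgeR (log2 fold change -0.61, adjusted p = 0.0378), and cry5 and cry1b did not (0.0538 and 0.0544).

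**Figure D5:**
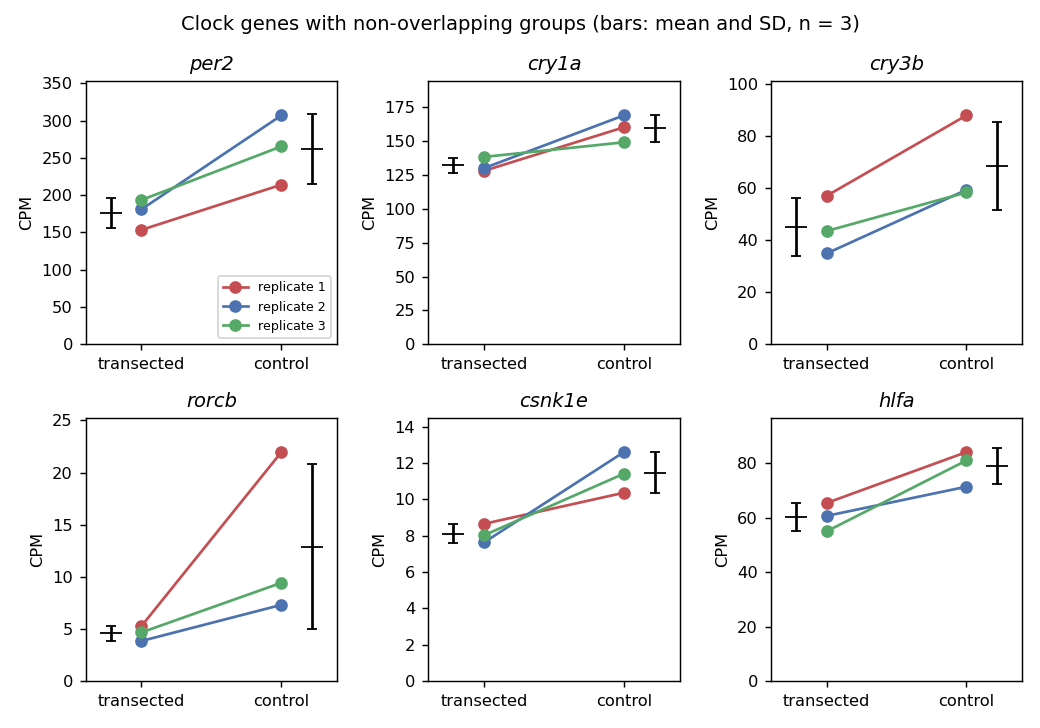
CPM of 6 clock genes whose transected libraries (left) all lie below their controls (right), with lines joining libraries of one replicate number and bars giving the mean and SD of 3 libraries per group. The axes start at 0, and control replicate 1 of rorcb stands at 21.97 CPM, above the other controls at 7.30 and 9.42 CPM.

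csnk1e, casein kinase 1 epsilon, had the smallest unadjusted p of the clock genes, with 225, 169 and 186 counts in transected and 256, 271 and 252 counts in control guts. At 8.10 ± 0.51 against 11.5 ± 1.12 CPM the groups did not overlap, and the log2 fold change was -0.50 (SE 0.13, adjusted p = 0.422 in edgeR, 0.292 with the block). The delta genes of the same kinase had small fold changes. csnk1da was 119 ± 2.94 against 114 ± 4.47 CPM, and csnk1db held 200.0, 208 and 210.2 CPM in transected and 186, 238 and 211 CPM in control guts, with log2 fold changes of 0.064 (SE 0.088) and -0.039 (SE 0.12).

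Among the D-box factors, hlfa, an activator, was 60.4 ± 5.22 CPM in transected and 78.9 ± 6.65 CPM in control guts. Its groups did not overlap (log2 fold change -0.39, SE 0.11, adjusted p = 0.473 in edgeR, 0.259 with the block). dbpa held 3.92, 7.63 and 6.98 CPM in transected and 7.77, 9.49 and 7.65 CPM in control guts, without overlap but with its highest transected and lowest control library next to each other. tefb held 25.9, 38.7 and 45.7 against 43.6, 48.2 and 45.9 CPM, and nfil3-2, of the repressor family, 4.54, 6.81 and 10.1 against 8.74, 6.88 and 9.06 CPM. The last 2 overlapped between the groups. tefa and dbpb, described above, had log2 fold changes of -0.11 (SE 0.31) and -0.03 (SE 0.58).

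All 4 activators were lower in the transected library within every replicate number. clocka had ratios of 0.614, 0.705 and 0.731 within replicates 1, 2 and 3, and its log2 fold change of -0.59 (SE 0.36) became -0.56 (SE 0.14) with the replicate block, at adjusted p values of 0.768 and 0.260 in edgeR. arntl1b had ratios of 0.929, 0.615 and 0.652, with 263, 140 and 152 counts in transected and 269, 221 and 222 counts in control guts. arntl1a lay at 0.909, 0.823 and 0.751 and clockb at 0.826, 0.921 and 0.863. Their levels in transected replicates 2 and 3 were the lowest of the 6 libraries for each of these 4 genes.

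The Rev-erb genes did not share this direction. nr1d1 was 1.16, 1.03 and 1.45 times its control within replicates 1, 2 and 3, and nr1d4b 2.22, 1.25 and 1.73 times. Neither passed (nr1d1 log2 fold change 0.27, SE 0.86, and 0.27, SE 0.12, with the block, adjusted p = 0.970 and 0.453; nr1d4b 0.61, SE 0.64, adjusted p = 0.885, all in edgeR). nr1d1 changed sign when control replicate 1 (-0.20) or transected replicate 2 or 3 (-0.021 and -0.064) was left out without a block. nr1d2b was lower in every transected library, at 173 ± 8.13 against 192 ± 3.24 CPM (log2 fold change -0.15, SE 0.094, adjusted p = 0.769 in edgeR). nr1d2a lay at ratios of 1.09, 0.967 and 1.29, and nr1d4a at 1.90, 1.01 and 0.840. The repressors ciarta (1.09, 0.974 and 1.13), bhlhe40 (0.910, 0.838 and 0.937) and bhlhe41 (1.22, 1.33 and 0.877) had no call.

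In a fit chosen after the data were seen, which used the 4 libraries of replicates 2 and 3 with the replicate number as a block, 8 clock genes were lower in transected guts (20.5%, against 3.60% of all genes) and 0 were higher (2.97% of all genes). They were cry-dash (adjusted p = 0.00805 in edgeR), cry5 (0.0176), rorcb (0.0180), per2 (0.0189), cry3b (0.0197), cry1b (0.0263), arntl1b (0.0430) and csnk1e (0.0462). This fit has 1 residual degree of freedom per gene and leans on the spread of all genes.

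Of the 7 clock genes that were not tested, arntl2, nfil3 and rorca had 0 counts in all 6 libraries, where 3 counts would be worth 0.115 to 0.140 CPM. nfil3-3, nfil3-4, nfil3-5 and npas2, a relative of clock, had 1 to 4 counts over all libraries together.

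Genes around the clock were read from 6 written lists, and 0 members passed in edgeR with or without the replicate block. Of 13 light-responsive and DNA repair genes tested, 5 of them clock genes, 11 had a negative log2 fold change, with a median of -0.27. Besides per2 and cry1a, hif1al had 124, 218 and 266 CPM in transected and 372, 332 and 316 CPM in control guts (adjusted p = 0.570 in edgeR). Of 17 kinase, phosphatase and ubiquitin ligase genes, 3 of them clock genes, 11 were negative (median -0.04). In this list usp2a, a deubiquitinase gene, held 21.2, 21.9 and 25.1 against 39.0, 28.8 and 27.3 CPM (0.544), and the kinase gene gsk3ba 51.0, 62.6 and 60.8 against 72.3, 67.1 and 67.7 CPM (0.658).

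Clock output genes were negative in 15 of 20 (median -0.24), and 6 of them lay below the controls in all transected libraries, where 6.38% of all genes did. DESeq2 called 1 of the 20, lpin1, against 1.46% of all genes with an adjusted p. With the block DESeq2 called 5 of the 20, against 288 of 11466 genes. lpin1, a phosphatidate phosphatase gene of lipid synthesis, held 103, 169.5 and 248 CPM in transected and 321, 389.6 and 400.3 CPM in control guts (log2 fold change -1.09, SE 0.31, adjusted p = 0.473 in edgeR, 0.191 in edgeR with the block, 0.0424 in DESeq2 and 2.02e-05 in DESeq2 with the block). The cell cycle inhibitor gene cdkn1d held 5.19, 5.64 and 7.50 against 10.3, 9.30 and 8.83 CPM (0.473 in edgeR), and pora, which encodes the electron donor of cytochrome P450 enzymes, 34.0, 41.0 and 40.4 against 48.8, 46.4 and 45.8 CPM (0.568).

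Of 14 tested cofactors of the Rev-erb and ROR receptors, 7 were negative (median -0.01). ncor1, the corepressor through which Rev-erb acts, held 82.2, 94.4 and 80.0 CPM in transected and 114, 115 and 114 CPM in control guts, without overlap (log2 fold change -0.42, SE 0.10, adjusted p = 0.412 in edgeR, 0.209 in edgeR with the block, 0.0459 in DESeq2 and 0.0936 in DESeq2 with the block). The coactivator gene ncoa2 held 60.0, 63.3 and 53.9 CPM in transected and 63.4, 69.0 and 68.0 CPM in control guts, without overlap but with the nearest libraries of the groups almost level (adjusted p = 0.744 in edgeR). Of 17 glucocorticoid response genes, 1 of them a clock gene, 11 were negative (median -0.10). cebpd, an acute phase transcription factor, was higher in every transected library, at 491, 359 and 321 against 261, 268 and 241 CPM (log2 fold change 0.61, SE 0.18, adjusted p = 0.473 in edgeR, 0.252 in edgeR with the block, 0.126 in DESeq2 and 0.0488 in DESeq2 with the block), while dusp1 (759.5, 386 and 317 against 323, 301 and 269 CPM) and pck1 (5137, 6986 and 8140 against 7671, 10830 and 9611 CPM) overlapped. Of 33 non-visual opsin genes 3 passed the low-count filter and 7 had 0 counts. rgrb was 43.2 ± 9.10 CPM in transected and 46.4 ± 12.7 CPM in control guts, tmtops2a 1.36 ± 0.29 against 1.24 ± 0.40 CPM, and exorh 0.40 ± 0.18 against 0.38 ± 0.19 CPM.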

How the data were processed

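Per the labels, each library is a pool of guts, sequenced from a stranded mRNA preparation as 100 bp read pairs that were inspected in FastQC 0.11.8 and mapped to danRer11. The authors' deposited table has whole-number counts by gene symbol, without normalization. Which aligner, counter and gene models made it is not given in the sources used here. Of 46 clock symbols, 43 are current and 3 are synonyms (arntl genes) in a RefSeq name table.

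Genes were filtered with filterByExpr (minimum count 10, total 15), scaled with TMM and fitted with the quasi-likelihood test of edgeR 4.0.16 in R 4.3.3 (robust, group only). Tests were two-sided, with Benjamini-Hochberg adjustment over all genes tested and a threshold of 0.05. A standard error is the log2 fold change divided by the root of F. Replicate number terms came from a fit with number and group. Alternatives were other scalings and filters, DESeq2 1.42.0, limma-voom (limma 3.58.1), robust fitting off, the replicate block and leaving out libraries. The pipeline was tested on simulated data. DESeq2 gives some genes no adjusted p, and these are not counted.

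Groups came from the labels. Deviations from the group mean correlated between transected and control libraries of the same number at 0.450, 0.512 and 0.177 for replicates 1, 2 and 3 over 11466 genes. Each lay above 0.1, and the numbers were taken as pairing the libraries. Libraries of different numbers correlated at -0.527 to 0.118, highest for transected replicate 2 with control replicate 3. That value also lies above 0.1, so the pairing is weakly marked for replicate 3. The labels call libraries biological replicates without naming clutches. In the group-only fit, p-values measure the spread between pools of guts, with differences between replicate numbers included. In fits with the replicate number, they measure the spread left after number and group are accounted for. Libraries of a group differed by more than sampling noise (27.4 to 254.9 in chi-square over its degrees of freedom). Named were all clock genes and, per list, genes past the threshold or else the 3 with the smallest p. Of the genes so named, 1 is not reported here. The clock genes and lists were chosen with earlier results of these data known.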

Additional observations from a re-analysis of the deposited data

How the results depend on the processing

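A count of 0 called with 3 libraries per group does not show that clock genes were alike. Clock genes called in transected against control guts numbered 0 in edgeR, 1 in DESeq2, 3 in DESeq2 with the replicate block, 0 to 2 when libraries were left out, and 8 without replicate 1 with the block kept, an alternative added after the data were seen. Over all genes the counts were 2, 164, 288, 0 to 271 and 751, with 0 in limma-voom and 4 with the replicate block in edgeR. These fits tested 11430 to 11668 genes. Over the 6 lists the counts were 0, 2, 7, 0 to 5 and 12, of 84 to 86 list members tested. The lists include clock genes, per2 among them, whose calls are counted here again. Other scalings and filters gave the same counts. Over all 6 libraries the replicate block in edgeR changed no call of a clock gene, while without replicate 1 it took the calls from 2 to 8. The clock genes' median log2 fold change lay between -0.32 and -0.20 in all 20 alternatives. The cause of the differences between tools was not tested. For the replicate number terms, 1 clock gene was called in edgeR (0.0959% of all genes), 2 with library size only (0.497%) and 2 without a filter (0.261%). DESeq2 called 13 (6.58% of all genes with an adjusted p). Without any 1 replicate number 0 were called in edgeR (0 to 0.0175% of all genes).

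Of 39 clock genes, 24 kept their sign in all alternatives, and 15 did not, all of them without a call. Fits that left out a single library had no block, so the replicate numbers were unequal between the groups. Differences between replicate numbers then enter the log2 fold change. Log2 fold changes when libraries were left out ranged from -0.28 to 0.52 for bhlhe41, -0.23 to 0.36 for ciarta, -0.48 to 0.017 for cry2, -0.13 to 0.056 for csnk1db, -0.41 to 0.36 for dbpb, -0.71 to 0.063 for hlfb, -0.54 to 0.079 for nfil3-2, -0.19 to 0.34 for nfil3-6, -0.20 to 0.78 for nr1d1, -0.12 to 0.45 for nr1d2a, -0.56 to 0.49 for nr1d4a, -0.54 to 0.41 for per1a, -0.28 to 0.11 for per3, -0.066 to 0.60 for rorb and -0.36 to 0.074 for tefa. For the opsins they were -0.093 to 0.42 (tmtops2a), -0.30 to 0.080 (rgrb) and -0.64 to 0.56 (exorh). nr1d4a was also positive in limma-voom (0.22), with the replicate block (0.072) and in DESeq2 with the block (0.12). Without replicate 1 with the block kept, dbpb (0.021), nfil3-2 (0.069), tmtops2a (-0.061) and exorh (-0.65) changed sign.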

Other observations

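The replicate number terms called 10 genes besides nr1d1 in edgeR, each with an adjusted p of 0.0416, and this list was made once the values were known. The immediate early genes fosab and ier2b, which cells switch on within minutes of a stimulus, were highest in replicate 1. fosab held 924, 111 and 62.3 CPM in transected and 379, 31.2 and 31.6 CPM in control replicates 1, 2 and 3, and ier2b 282, 38.4 and 30.5 against 119, 23.3 and 19.2 CPM. The chitinase gene chia.3 (103.5, 20.3 and 19.6 against 81.7, 20.5 and 20.4 CPM), the transporter gene slc5a12 (15.7, 0.27 and 2.33 against 25.6, 0.23 and 3.08 CPM) and the homeobox gene dlx3b (48.6, 10.8 and 17.8 against 44.3, 9.67 and 15.8 CPM) were also highest there.

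In the other direction, arf5 held 0.88, 18.7 and 16.9 CPM in transected and 0.93, 19.4 and 11.7 CPM in control replicates 1, 2 and 3, and selenol 0.46, 14.2 and 11.4 against 0.24, 13.5 and 14.2 CPM. ptgr1, an enzyme gene of prostaglandin breakdown, held 5.76, 20.3 and 22.9 against 6.51, 23.0 and 24.5 CPM. slc12a10.1 held 28.7, 97.2 and 71.3 against 43.8, 137.5 and 114 CPM, and si:ch211-132b12.7 24.1, 74.0 and 72.3 against 27.9, 97.0 and 89.1 CPM. All 10 genes had both replicate 1 libraries on the same side of the other 4, which their choice by the replicate number terms favours. Counts were low for selenol in replicate 1 (12 in transected, 6 in control) and for slc5a12 in replicate 2 (6 and 5).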
